A study of Mus musculus with 24 samples.

Results

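The 10 genes described here restore a photoreceptor to its dark state after light and adjust its gain through calcium, and they were taken by symbol (Grk1, Rcvrn, Guca1a, Guca1b, Gucy2e, Gucy2f, Rgs9, Rgs9bp, Gnb5 and Slc24a1) from a table of 28802 genes. All 10 were found, and all 10 were among the 16400 genes that entered the tests, for which the mean over all libraries had to reach 0.5 cpm. The measurements came from retinas of wild-type mice at postnatal day 28, from 24 libraries of total RNA depleted of ribosomal RNA. There were 3 libraries for each of 8 inbred strains, 129S1/Svlmj, A/J, C57BL/6J, NOD/ShiLtJ and NZO/HlLtJ, and the wild-derived CAST/EiJ, PWK/PhJ and WSB/EiJ. The labels give neither the sex of the mice nor whether the libraries of a strain came from separate animals, though the authors treated each library as a biological replicate, so the tests measure the spread between these libraries. The unit is cpm, the reads of a gene scaled by the total reads of the library, and strain means are given with the SD of 3 libraries.

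In the dark, cyclic GMP holds the channels of the outer segment open and calcium enters. Light activates the receptor, transducin and phosphodiesterase in turn, cyclic GMP falls, the channels close and calcium declines because the exchanger goes on removing it. Recovery requires that the receptor be phosphorylated, that transducin hydrolyse its GTP and that guanylate cyclase make new cyclic GMP, and the fall in calcium promotes the first and the last of these steps.

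The libraries held 57607000 to 78150000 reads, and 3 reads, taken as the limit of detection, were worth 0.0384 to 0.0521 cpm. A member had between 3247 reads (Guca1b) and 90511 reads (Grk1) in a library, so counting error was small for each of them. The WSB/EiJ libraries were spread widely. In WSB/EiJ replicate 2 all 10 members were below the mean of their strain, by 0.20 on the log2 scale on average, while in WSB/EiJ replicate 1 none was below it and the mean deviation was 0.15. The 10 rod markers of replicate 2 were also low, with a mean log2 deviation of -0.17, and those of replicate 1 were high, with 0.16. The medians of the genes with at least 5 cpm deviated by -0.04 and 0.04. The coefficient of variation of the members had a median of 12.5% in WSB/EiJ and of 3.03% to 5.80% in the other strains. Calls of members in WSB/EiJ are given with and without replicate 2.

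Compared per length of exon, the calcium sensor genes Rcvrn and Guca1a were the most abundant members. Recoverin (Rcvrn) had 160 cpm per kb as the mean of the 8 strain means, and Guca1a, which encodes the guanylate cyclase activator GCAP1, had 123 cpm per kb. The kinase gene Grk1 followed with 94.0 cpm per kb and the exchanger Slc24a1 with 68.2 cpm per kb. Guca1b, which encodes GCAP2, had 52.8 cpm per kb, Gnb5 39.2 cpm per kb, Rgs9bp 36.8 cpm per kb and Rgs9 22.2 cpm per kb. The cyclases were lowest, with 18.6 cpm per kb for Gucy2f and 13.1 cpm per kb for Gucy2e. Exon lengths are those of all annotated exons joined, from 873 bases for Guca1a to 9197 bases for Gucy2e. They come from GENCODE, while the authors counted reads with the RefSeq annotation, so the order depends on lengths from another source. Without regard to length Grk1 was highest, with 826 cpm against 167 cpm for Rcvrn.

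Which members differ between strains was asked with a moderated F-test (limma) that compares the 8 strains together, and a gene passed if Storey's q was under 0.01. All 10 members passed, but so did 91.7% of all genes tested, so that passing says little about the members. Because few genes were without a difference, this q let unadjusted p-values of up to 0.184 pass, and with a Benjamini-Hochberg adjusted p under 0.01 the count was 9 members and 11574 genes (70.6%). The member lost was Gucy2e, with an adjusted p of 0.0194. With the added limit that the highest strain mean be at least 1.5 times the lowest, 5 of 10 members passed, Guca1b, Guca1a, Grk1, Gnb5 and Rgs9, against 46.3% of all genes. The count was 3 without WSB/EiJ replicate 1 (all genes: 46.9%) or without WSB/EiJ replicate 3 (all genes: 46%), and 2 with rod marker scaling (all genes: 57.5%). The ratio of the highest to the lowest strain mean had a median of 1.49 over the members, 1.46 over all genes tested and 1.29 over the 1208 genes whose mean reached 50 cpm. Of those 1208 genes 22.7% had a ratio of at least 1.5, whatever their q, against 46.7% of all genes tested. Over the 10 members and the 28 pairs of strains, 106 combinations passed a q of 0.01, against 29.8% of all combinations of a gene and a pair. The mean number of pairs called was 10.6 of 28 for a member. It was 8.34 over all genes tested and 9.77 over the genes whose mean reached 50 cpm. A share near the background is not a result about the members. In bulk tissue, fewer cells of a type and less RNA per cell cannot be told apart.

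**Figure D1:**
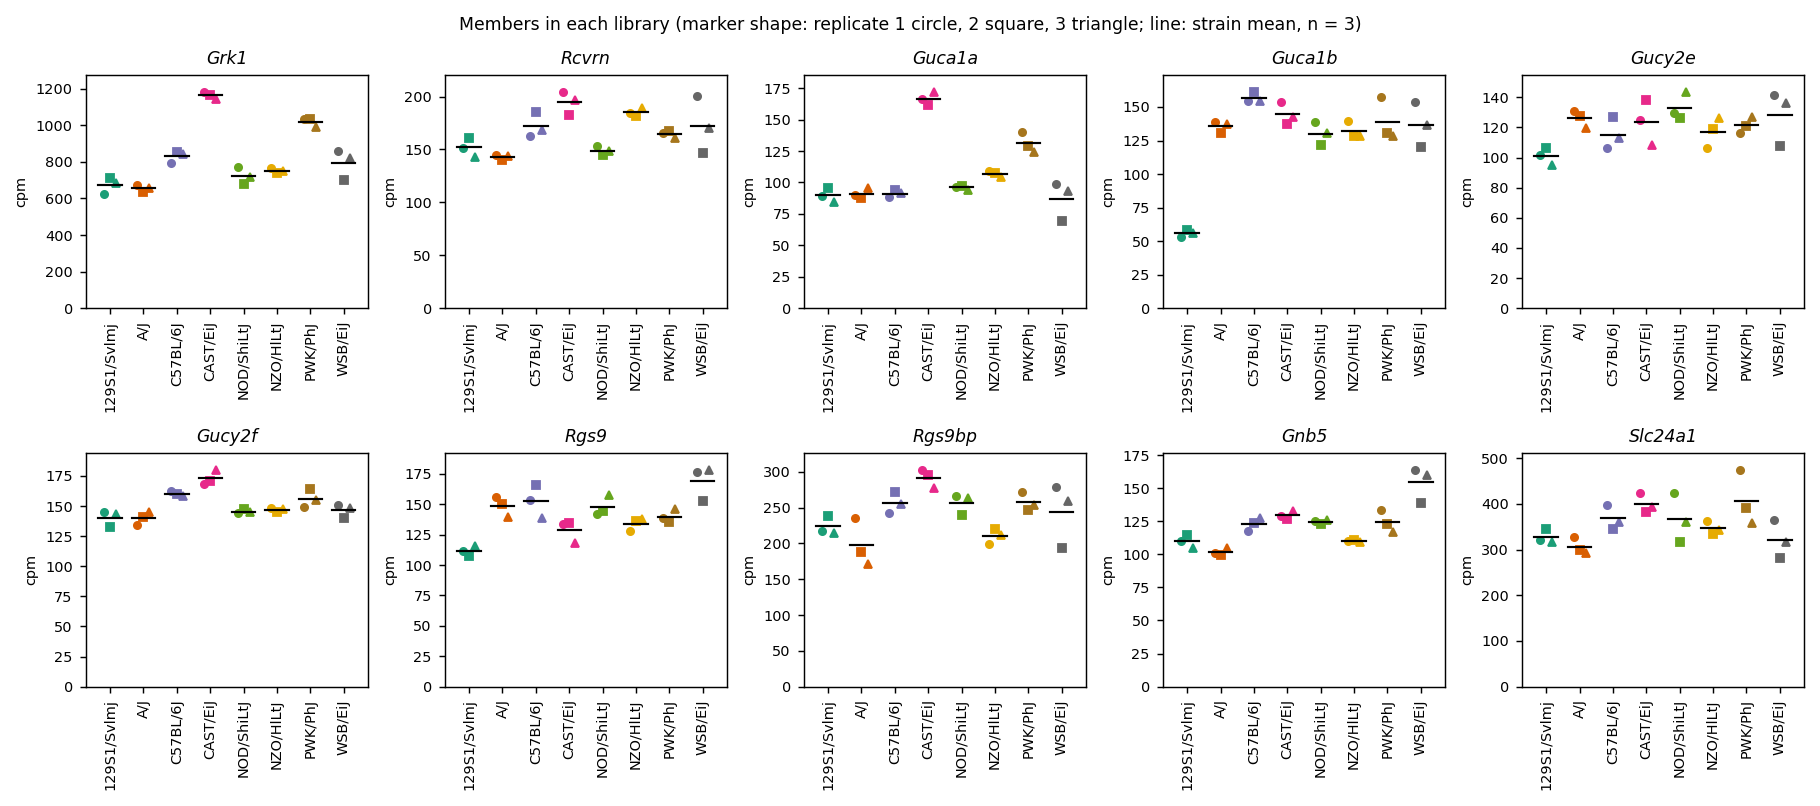
Level of each of the 10 members in cpm (vertical axis, from 0) in the 24 libraries, by strain (horizontal axis). Each point is a library, its shape gives the replicate number, and the black line is the mean of 3 libraries. Guca1b lies between 52.8 and 58.4 cpm in 129S1/Svlmj and at 120.0 cpm or above in every other library, and Grk1 and Guca1a are highest in CAST/EiJ.

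Grk1 encodes the kinase that acts on the light-activated receptor, which lets arrestin bind and ends its activity. It lies at chr8:13405081-13421951 on the plus strand of GRCm38. In CAST/EiJ it measured 1182, 1162 and 1145 cpm in replicates 1 to 3, and in PWK/PhJ 1031, 1035 and 989 cpm. In A/J it measured 671, 637 and 658 cpm, and in 129S1/Svlmj 625, 712 and 682 cpm. The 3 CAST/EiJ libraries were above all others, the 3 PWK/PhJ libraries came next, and the other 6 strains lay between 655 ± 17.3 cpm (A/J) and 830 ± 30.5 cpm (C57BL/6J). The ratio of the highest to the lowest mean was 1.77 (q = 1.15e-11 in the F-test). In the order of strain means, both steps from C57BL/6J to PWK/PhJ and from PWK/PhJ to CAST/EiJ passed the pairwise test (q = 2.88e-04 and q = 0.00847), while none of the 5 steps below C57BL/6J did. Of the 28 pairs, 19 differed, the most of any member. Under quantile normalization the ratio was 1.34, and relative to the rod markers it was 1.48.

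Recoverin is the calcium sensor that restrains this kinase while calcium is high. Rcvrn, at chr11:67695326-67703333 (plus strand), varied less than Grk1. It measured 204, 183 and 197 cpm in CAST/EiJ and 144, 139.8 and 143 cpm in A/J. The A/J libraries overlapped with those of other strains, and WSB/EiJ replicate 1 (200.1 cpm) lay within the range of CAST/EiJ. No neighbours in the order of the 8 strain means differed, and 9 of 28 pairs did. The ratio of Grk1 to Rcvrn within a library was 6.19 ± 0.0309 in PWK/PhJ and 5.98 ± 0.321 in CAST/EiJ, and between 4.06 ± 0.0892 (NZO/HlLtJ) and 4.85 ± 0.164 (NOD/ShiLtJ) in the other 6 strains (SD, n = 3). The libraries of PWK/PhJ and CAST/EiJ were above those of the other 6 strains in this ratio, which does not change when a library is scaled by a factor. Quantile normalization is no such scaling, and under it CAST/EiJ exceeded the other 7 strains by 0.23 in log2 for Grk1 and 0.25 for Rcvrn, in place of 0.60 and 0.27.

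Guca1a and Guca1b encode the proteins that switch on guanylate cyclase when calcium falls. They are neighbours on chromosome 17, with Guca1b at chr17:47385393-47392967 on the plus strand and Guca1a at chr17:47394558-47400584 on the minus strand, so that their 3' ends face each other across 1590 bases. Guca1a measured 166, 162 and 172 cpm in CAST/EiJ and 140.5, 129 and 124 cpm in PWK/PhJ. In WSB/EiJ, the strain with the lowest mean, it measured 99.0, 69.4 and 93.1 cpm. CAST/EiJ stood above all other libraries, and the 5 strains below NZO/HlLtJ (107 ± 2.30 cpm) had means of 87.2 ± 15.6 to 96.0 ± 1.59 cpm with no difference between neighbours in their order. The ratio of CAST/EiJ to WSB/EiJ was 1.91 (q = 1.46e-10 in the F-test). Without WSB/EiJ replicate 2 the mean of WSB/EiJ was 96.0 cpm, its difference from the other 7 strains was -0.16 in place of -0.32 on the log2 scale, and 129S1/Svlmj was then the lowest strain.

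Guca1b showed the largest difference of any member. It measured 52.8, 58.4 and 56.0 cpm in 129S1/Svlmj and 154, 161 and 154 cpm in C57BL/6J. Every 129S1/Svlmj library was far below the lowest library of the other strains (120.0 cpm, WSB/EiJ replicate 2), and the other 7 strains had means of 130.2 ± 8.37 cpm (NOD/ShiLtJ) to 157 ± 4.06 cpm (C57BL/6J). The C57BL/6J libraries lay above those of every other strain but PWK/PhJ, of which replicate 1 had 157 cpm. The 129S1/Svlmj mean was 0.400 times the mean of the other strains, and the difference was -1.30 ± 0.0589 (SE) on the scale of log2(cpm + 1), with q = 1.11e-14. The ratio of the highest to the lowest strain mean was 2.81, and without 129S1/Svlmj it was 1.203. None of the 6 steps among the other 7 strains passed the pairwise test, while C57BL/6J differed from NOD/ShiLtJ (q = 0.00433) and from NZO/HlLtJ (q = 0.00756). In the ratio of Guca1b to Guca1a within a library, 129S1/Svlmj had 0.622 ± 0.0369, CAST/EiJ 0.868 ± 0.0515 and PWK/PhJ 1.06 ± 0.0561, while C57BL/6J had 1.72 ± 0.0284 (SD, n = 3). Guca1b was thus the more abundant in cpm in 6 strains and the less abundant in 129S1/Svlmj and CAST/EiJ.

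No gene around Guca1b showed a difference of its size. Of the 19 genes tested that lie wholly within 500000 bases of it, Guca1b itself was the only one with all 129S1/Svlmj libraries below, or all above, those of the other strains. Mrps10, a mitochondrial ribosomal protein gene that ends shortly before Guca1b begins and was named after its values were seen, had 12.6 ± 1.31 cpm in 129S1/Svlmj and strain means of 4.60 to 10.8 cpm elsewhere, a ratio of 1.61 to the mean of the others. Guca1a had a ratio of 0.815 and was called lower as well (-0.25 in log2, q = 0.001003). The gene whose log2 level was most alike to Guca1b over the 24 libraries, among 9264 genes with at least 5 cpm, was Gm4735 on chromosome 2 (r = 0.97), with 2.77 cpm in 129S1/Svlmj and 120.2 cpm in C57BL/6J.

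**Figure D2:**
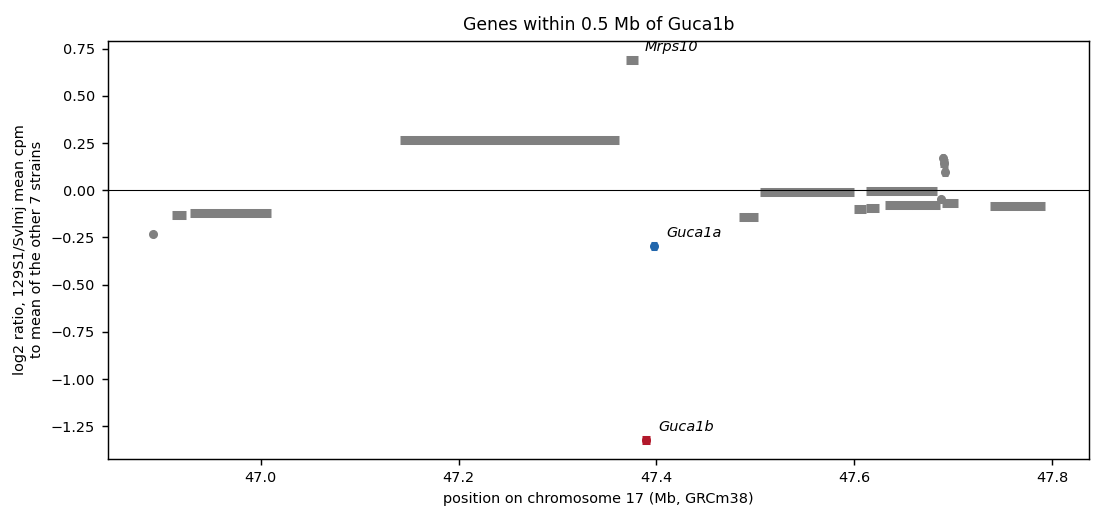
Genes tested within 0.5 Mb of Guca1b on chromosome 17, with position in Mb (horizontal axis, GRCm38) and the log2 ratio of the 129S1/Svlmj mean to the mean of the other 7 strains (vertical axis). Each bar spans a gene and points mark gene centres, with Guca1b in red and Guca1a in blue. Guca1b, with a linear ratio of 0.400, lies below all others, and Mrps10, with 1.61, above them.

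The cyclases had ratios of the highest to the lowest strain mean of 1.32 (Gucy2e) and 1.23 (Gucy2f). The median ratio was 1.29 over the genes whose mean reached 50 cpm and 1.46 over all genes tested. Gucy2e, at chr11:69218117-69237036 (minus strand), encodes the main retinal guanylate cyclase, and Gucy2f, at chrX:142081160-142196931 (minus strand), a related cyclase of photoreceptors. Gucy2e measured 101, 106 and 95.3 cpm in 129S1/Svlmj and 129.5, 126 and 144 cpm in NOD/ShiLtJ, the lowest and the highest strain. Without WSB/EiJ replicate 2 the highest strain was WSB/EiJ, with 139 cpm in place of 128 cpm. The lowest libraries of C57BL/6J and NZO/HlLtJ (both 106 cpm) met the highest of 129S1/Svlmj, no step between neighbours passed, and 4 of 28 pairs differed. Without 129S1/Svlmj replicate 3, the difference of 129S1/Svlmj from the other 7 strains was -0.24 in log2 with q = 0.0129, past the limit.

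Gucy2f had the smallest ratio of the members (1.23). It measured 168, 171 and 180 cpm in CAST/EiJ, above all 21 other libraries, and 134, 141 and 145 cpm in A/J. Its replicates were close and 12 of 28 pairs differed (q = 6.31e-07 in the F-test). In 4 libraries, 1 each of 129S1/Svlmj, C57BL/6J, PWK/PhJ and CAST/EiJ, Xist was above 100 cpm. In these 4 libraries the Y-linked genes Ddx3y, Eif2s3y and Kdm5d were each under 1 cpm. Gucy2f is X-linked. Gucy2f in these libraries was 143 cpm against a mean of 139 cpm in the others of 129S1/Svlmj, 159 against 161 cpm in C57BL/6J, 164 against 152 cpm in PWK/PhJ and 180 against 169 cpm in CAST/EiJ. Without A/J replicate 1 the difference of A/J from the other 7 strains was -0.09 in log2 with q = 0.0290, past the limit. The ratio of Gucy2f to Gucy2e within a library ran from 1.10 ± 0.0788 in NOD/ShiLtJ to 1.41 ± 0.222 in CAST/EiJ. The NOD/ShiLtJ libraries were below those of CAST/EiJ, C57BL/6J, 129S1/Svlmj, PWK/PhJ and NZO/HlLtJ, and overlapped with those of A/J and WSB/EiJ.

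Rgs9, Gnb5 and Rgs9bp encode the complex that speeds GTP hydrolysis by transducin, with Rgs9 as the catalytic subunit, Gnb5 as its obligate partner and Rgs9bp as the anchor in the disc membrane. Rgs9 (chr11:109225355-109298129, minus strand) measured 112, 108 and 116 cpm in 129S1/Svlmj and 176, 153 and 178 cpm in WSB/EiJ. All 129S1/Svlmj libraries were below all others, and WSB/EiJ overlapped with C57BL/6J, of which replicate 2 had 166 cpm. A/J replicate 1 (156 cpm) and NOD/ShiLtJ replicate 3 (158 cpm) were also above WSB/EiJ replicate 2. The ratio of these strains was 1.51, and 10 of 28 pairs differed. CAST/EiJ, the highest strain for Grk1, Rcvrn, Guca1a, Gucy2f and Rgs9bp, had 129 ± 9.22 cpm of Rgs9 and was the lowest strain but 129S1/Svlmj.

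Gnb5 (chr9:75306288-75345876, plus strand) measured 164, 139 and 160.3 cpm in WSB/EiJ and 101, 99.6 and 105 cpm in A/J. Both strains stood apart, WSB/EiJ above the highest library elsewhere (133 cpm, PWK/PhJ replicate 1) and A/J just below the lowest (104.8 cpm, 129S1/Svlmj replicate 3). The ratio was 1.52, the step from CAST/EiJ to WSB/EiJ had q = 3.59e-04, and 17 of 28 pairs differed. Of its exon bases 7.96% are shared with Gm19531 on the other strand, whose reads could not be told apart here. Without WSB/EiJ replicate 2 the WSB/EiJ mean was 162 cpm for Gnb5 and 177 cpm for Rgs9, and the differences from the other strains were 0.46 and 0.37 in log2 in place of 0.39 and 0.30. Without WSB/EiJ replicate 1 the ratios of the highest to the lowest strain were 1.47 for Gnb5 and 1.48 for Rgs9, and without WSB/EiJ replicate 3 they were 1.49 and 1.47.

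The anchor Rgs9bp, at chr7:35578993-35585582 (minus strand), measured 302, 295 and 278 cpm in CAST/EiJ and 236, 189 and 171 cpm in A/J. Its replicates were wide apart in A/J and in WSB/EiJ (279, 193 and 259 cpm), WSB/EiJ replicate 1 reached the range of CAST/EiJ, and 6 of 28 pairs differed. Without A/J replicate 3 the difference of A/J from the other 7 strains was -0.23 with q = 0.0217, past the limit. The ratio of Rgs9bp to Rgs9 within a library was 1.33 ± 0.157 in A/J and 2.27 ± 0.0784 in CAST/EiJ, with 129S1/Svlmj (2.01 ± 0.188) nearest to CAST/EiJ and overlapping with it.

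Slc24a1, at chr9:64922861-64951607 (minus strand), encodes the exchanger that removes calcium from the rod outer segment. It measured 474, 389.9 and 358 cpm in PWK/PhJ, 425, 383 and 393 cpm in CAST/EiJ, and 327, 300.0 and 293 cpm in A/J. PWK/PhJ and CAST/EiJ lay above A/J without overlap, and NOD/ShiLtJ and WSB/EiJ overlapped with A/J and with PWK/PhJ. The ratio of PWK/PhJ to A/J was 1.33, no step between neighbours passed, and 5 of 28 pairs differed. Without PWK/PhJ replicate 1 the PWK/PhJ difference was 0.11 in log2 with q = 0.130, and it was 0.25 with q = 0.0166 without PWK/PhJ replicate 2. Leaving out single libraries ended this call in 15 of 24 fits. Where the library left out was of another strain, the difference in these fits was 0.22 to 0.23, against 0.23 with all libraries. The q was then 0.0103 to 0.0132, just past the limit. The PWK/PhJ call was also lost under median-ratio scaling (0.20, q = 0.0116), with Benjamini-Hochberg adjustment and without the libraries high in Xist. The A/J difference was -0.20 with q = 0.0419 without A/J replicate 3 and -0.22 with q = 0.0326 without A/J replicate 2. It was past the limit in 5 of 24 such fits. The others were those without WSB/EiJ replicate 3, NZO/HlLtJ replicate 1 or CAST/EiJ replicate 1. In each of these the difference was -0.23, as with all libraries, with q = 0.0102, 0.0109 and 0.0110. The A/J call was also lost with Benjamini-Hochberg adjustment and without the libraries high in Xist.

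Which strains were high or low was asked by setting each against the unweighted mean of the other 7, with q under 0.01 over all genes and contrasts. These contrasts share libraries, so they are given side by side only. CAST/EiJ was higher for 6 of 10 members, Grk1, Rcvrn, Guca1a, Guca1b, Gucy2f and Rgs9bp (all genes: 18%), and lower for none (all genes: 25.9%). Rgs9 was called lower in CAST/EiJ under quantile normalization (-0.19 in log2, q = 0.00185) and without WSB/EiJ replicate 2. Gnb5 and Slc24a1 were called higher in CAST/EiJ under median-ratio scaling. PWK/PhJ was higher for 4, Grk1, Guca1a, Guca1b and Slc24a1 (all genes: 23.5%), and lower for none (all genes: 20.5%). Under quantile normalization Grk1 in PWK/PhJ was 0.11 in log2 in place of 0.38 and was not called, and the call of Guca1b was lost with Benjamini-Hochberg adjustment and without the libraries high in Xist. In 129S1/Svlmj 7 members were lower, Grk1, Guca1a, Guca1b, Gucy2e, Gucy2f, Rgs9 and Gnb5 (all genes: 13.2%), and none was higher (all genes: 14.8%), though the direction of Gucy2f and Gnb5 turned under rod marker scaling. Without the 4 libraries high in Xist the calls of Guca1a, Gucy2e and Gnb5 in 129S1/Svlmj were lost, and under quantile normalization that of Gucy2f. Rcvrn was called lower in 129S1/Svlmj under median-ratio scaling and without WSB/EiJ replicate 2. A/J was also lower for 7, Grk1, Rcvrn, Guca1a, Gucy2f, Rgs9bp, Gnb5 and Slc24a1 (all genes: 12.9%), and higher for none (all genes: 15.3%), though the direction of Gucy2f turned under rod marker scaling. Under quantile normalization the calls of Grk1 (-0.07 in place of -0.35), Gucy2f and Slc24a1 in A/J were lost, and Guca1b was called higher there (0.18).

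The other 4 strains had few calls among the members. C57BL/6J was higher for Guca1b and Gucy2f (2 of 10, all genes: 13.7%) and lower for Guca1a (1 of 10, all genes: 11.2%). The call of Gucy2f in C57BL/6J was lost under median-ratio, quantile and rod marker scaling, with Benjamini-Hochberg adjustment and without the 4 libraries high in Xist, and that of Guca1a without those 4 libraries. The Gucy2f difference was 0.101 in log2 as deposited, 0.096 under median-ratio scaling (q = 0.0226) and 0.075 under quantile normalization (q = 0.0313). NOD/ShiLtJ was lower for Grk1 and Rcvrn (2 of 10, all genes: 9.79%) and higher for none (all genes: 15.9%). Guca1a was called lower in NOD/ShiLtJ as well under median-ratio, quantile and rod marker scaling and without WSB/EiJ replicate 2. NZO/HlLtJ was higher for Rcvrn (1 of 10, all genes: 13.2%) and lower for Gnb5 (1 of 10, all genes: 13.8%). It was lower for 3 members, with Grk1 and Rgs9bp added, without WSB/EiJ replicate 2 and under median-ratio scaling. Under rod marker scaling it was lower for 4, with Rgs9 as well. Over all genes 2373 were lower under median-ratio and 3950 under rod marker scaling, in place of 2262. The calls of Rcvrn in NOD/ShiLtJ and in NZO/HlLtJ were lost with Benjamini-Hochberg adjustment and without the libraries high in Xist. WSB/EiJ was higher for Rgs9 and Gnb5 (2 of 10, all genes: 12.1%) and lower for Guca1a (1 of 10, all genes: 21%). Without WSB/EiJ replicate 2, WSB/EiJ was higher for 5 members, with Rcvrn, Guca1b and Gucy2e added (all genes: 11.3%), and still lower for Guca1a (all genes: 16.6%). Guca1b was also called higher in WSB/EiJ under median-ratio, quantile and rod marker scaling, and Grk1 under quantile normalization. Slc24a1 was called lower there under rod marker scaling.

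**Figure D3:**
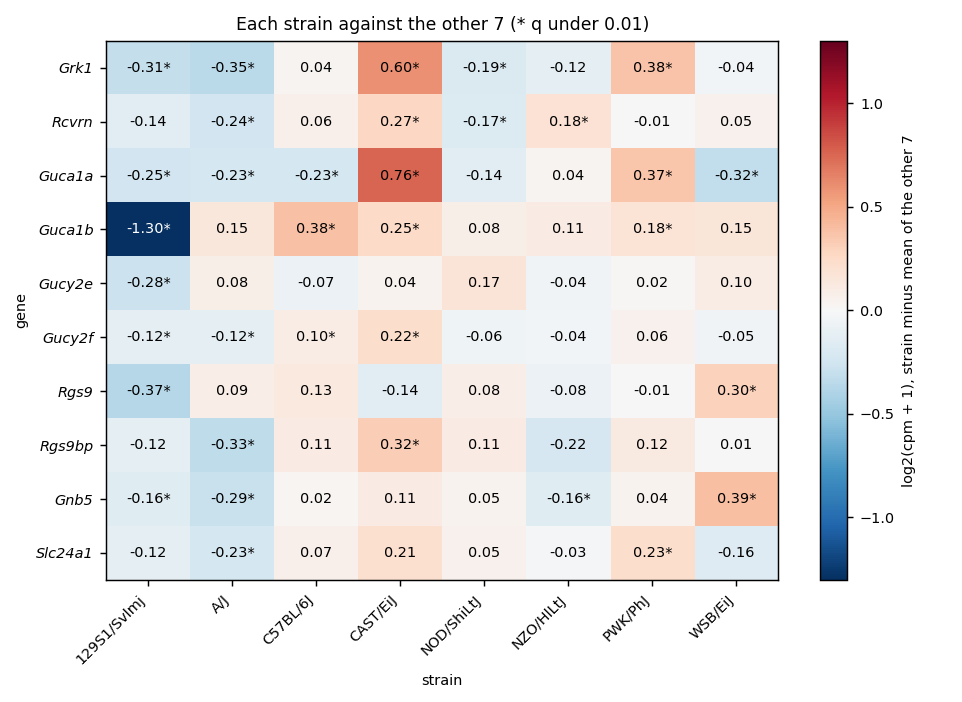
Difference in log2(cpm + 1) of each strain (columns) from the mean of the other 7 strains, for the 10 members (rows), with red for higher and blue for lower. Stars mark q under 0.01. The largest difference is that of Guca1b in 129S1/Svlmj, at -1.30, and CAST/EiJ has the largest positive one, 0.76 for Guca1a. Under rod marker scaling the signs of Gucy2f in 129S1/Svlmj and A/J and of Gnb5 in 129S1/Svlmj turn.

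Rod markers differed between strains as well. The geometric mean of the 10 rod markers was lowest in A/J (456 ± 8.28 cpm) and 129S1/Svlmj (457 ± 14.3 cpm) and highest in CAST/EiJ (556 ± 11.6 cpm), a ratio of 1.22. PWK/PhJ had 499 ± 20.3 cpm, NOD/ShiLtJ 506 ± 28.9 cpm, WSB/EiJ 509.9 ± 56.9 cpm, NZO/HlLtJ 531 ± 5.20 cpm and C57BL/6J 537 ± 15.8 cpm. This order is that of the geometric mean, and the order by summed cpm of the same markers was another. By summed cpm C57BL/6J was highest (12377 ± 306 cpm), above CAST/EiJ (11754 ± 622 cpm), and A/J was lowest (9280 ± 185 cpm). The part of rod RNA in the members' results was not tested otherwise than by scaling. When libraries were scaled to the rod markers, 21 of the 34 calls stood in the same direction. The direction turned for Gucy2f in 129S1/Svlmj (0.05 in log2) and A/J (0.05) and for Gnb5 in 129S1/Svlmj (0.00240), none of which then passed. This scaling moved the whole table, so the shares of all genes differ from those above. A/J was then lower for 2 of 10 members, Grk1 and Gnb5 (all genes: 5.05%), and higher for 3, Guca1b, Gucy2e and Rgs9 (all genes: 44.5%). In 129S1/Svlmj 3 members were then lower, Grk1, Guca1b and Rgs9 (all genes: 4.79%), and none was higher (all genes: 39.5%). In CAST/EiJ 3 were higher, Grk1, Rcvrn and Guca1a (all genes: 9.02%), and 1 was lower, Rgs9 (all genes: 47%). Relative to the rod markers the largest of these differences were those of Guca1b in 129S1/Svlmj (-1.14), Guca1a in CAST/EiJ (0.60) and Grk1 in CAST/EiJ (0.44). Ratios of members to rod markers spanned, from strain to strain, a factor of 2.44 for Guca1b, 1.77 for Guca1a, 1.48 for Grk1, 1.46 for Gnb5 and 1.44 for Rgs9, and of 1.13 for Gucy2f.

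Markers of tissue next to the retina also differed between libraries. The summed level of 8 lens genes, with Cryaa the most abundant, was 1619 cpm in 129S1/Svlmj replicate 2, 1831 cpm in NOD/ShiLtJ replicate 2 and 214 cpm in C57BL/6J replicate 2, and between 5.16 and 85.3 cpm in the other 21 libraries. In 129S1/Svlmj, Guca1b measured 58.4 cpm in the library rich in lens genes and 52.8 and 56.0 cpm in the others. The part of lens tissue in the members' levels was not tested. The 8 genes of pigment epithelium, 6 of them tested and Rgr the most abundant, summed to 16.1 ± 1.999 cpm in CAST/EiJ and 72.5 ± 21.1 cpm in WSB/EiJ. The 5 blood genes, 4 of them tested and led by Hbb-bs, summed to 12.3 ± 1.05 cpm in CAST/EiJ and 28.4 ± 3.43 cpm in NOD/ShiLtJ. The 6 ON bipolar markers, led by Trpm1, were lowest in CAST/EiJ (372 ± 12.2 cpm) and highest in WSB/EiJ (582 ± 34.2 cpm), and the 10 cone markers, led by Opn1sw, were lowest in CAST/EiJ (291 ± 9.24 cpm) and highest in PWK/PhJ (449 ± 5.94 cpm). Markers of Mueller glia (5 genes, Glul first) were between 756 ± 19.9 cpm in WSB/EiJ and 1002.5 ± 27.8 cpm in NOD/ShiLtJ, and those of amacrine and ganglion cells (7 genes, Nefl first) between 234 ± 5.83 cpm in CAST/EiJ and 318 ± 23.7 cpm in C57BL/6J. The part of these cell types in the members' differences was not tested.

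**Figure D4:**
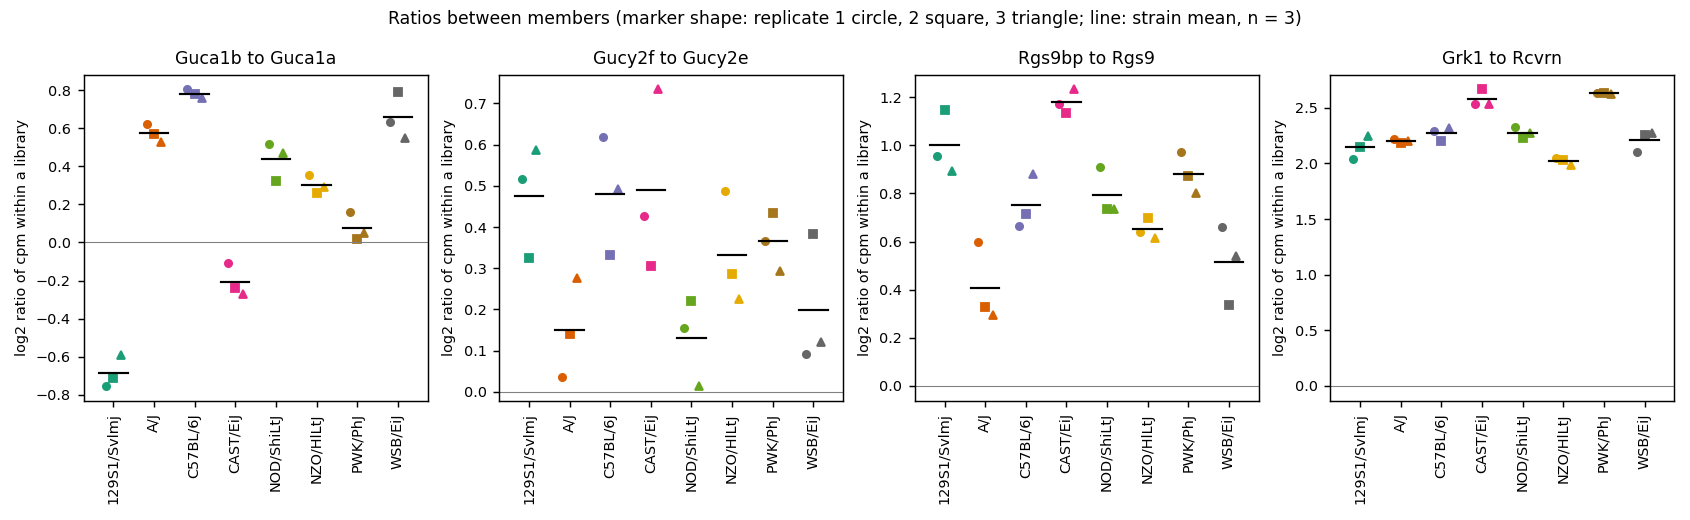
Log2 ratio of the cpm of one member to that of another within each library (vertical axes, each with its own range), by strain (horizontal axis), for Guca1b to Guca1a, Gucy2f to Gucy2e, Rgs9bp to Rgs9 and Grk1 to Rcvrn. Points are libraries, shapes are replicate numbers and lines are means of 3 libraries. The ratio of Guca1b to Guca1a has a log2 mean of -0.69 in 129S1/Svlmj and 0.78 in C57BL/6J.

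Among themselves the members mostly varied together over the 8 strain means, which share the scaling of their libraries. Pearson's r was positive for 39 of the 45 pairs of members, with a median of 0.44. The closest pairs were Grk1 with Gucy2f (0.92) and Grk1 with Guca1a (0.88), and the lowest value was that of Guca1a with Rgs9 (-0.33). Guca1a and Guca1b, neighbours in the genome, had r = 0.29, and Gucy2e and Gucy2f 0.12. Relative to the rod markers 24 of 45 were positive, with a median of 0.02, and Grk1 with Guca1a was the highest (0.84). For Rgs9 with its partner Gnb5 r was 0.53 as deposited and 0.50 relative to the rod markers, and for Rgs9 with Rgs9bp 0.03 and -0.18. These are descriptions over 8 points.

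Genes outside the members with the most similar levels over the 24 libraries were, for Grk1, the histone methyltransferase gene Ezh1 (r = 0.94), for Guca1a B230369F24Rik (0.94) and for Gnb5 Fbxo27 (0.90). They were Ints3, a subunit of the Integrator complex, for Gucy2e (0.88), Sdha of succinate dehydrogenase for Slc24a1 (0.88), Agtrap for Rgs9 (0.86) and Thoc5 for Rcvrn (0.86). Epha10 was the nearest to Rgs9bp (0.86) and Abhd14a to Gucy2f (0.86). Thoc5 ran from 13.3 cpm in A/J to 72.4 cpm in CAST/EiJ and Abhd14a from 1.94 to 15.0 cpm in the same strains, far wider spans than those of Rcvrn and Gucy2f.

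Other genes of the cascade give a setting for these spans. For each list the shares of all genes are again 91.7% that passed the F-test and 46.3% that also reached a ratio of 1.5. All 9 genes of rod activation passed the F-test and 3 also had a ratio of at least 1.5, with a median ratio of 1.37. Gngt1, the gamma subunit of rod transducin, ran from 294 ± 23.7 cpm in C57BL/6J to 543 ± 42.1 cpm in CAST/EiJ, and Pde6a, a catalytic subunit of rod phosphodiesterase, from 441 ± 24.3 cpm in NOD/ShiLtJ to 729.6 ± 28.0 cpm in CAST/EiJ. Cnga1, a subunit of the rod channel, had the smallest ratio (1.25). In A/J 7 of these 9 genes were lower than in the other strains (all genes: 12.9%) and none was higher, and in CAST/EiJ 4 were higher (all genes: 18%) and none was lower. Counts by strain for this list and the next were not repeated with rod marker scaling.

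All 9 genes of the cone cascade passed, 7 with a ratio of at least 1.5, and their median ratio was 2.37. Pde6c, the catalytic subunit of cone phosphodiesterase, ran from 10.5 ± 0.655 cpm in NOD/ShiLtJ to 41.2 ± 2.56 cpm in PWK/PhJ, and its inhibitory partner Pde6h from 9.95 ± 1.43 cpm in WSB/EiJ to 32.6 ± 2.84 cpm in C57BL/6J. Gnb3, a beta subunit of transducin in cones, had the smallest ratio (1.39). NOD/ShiLtJ was lower for 7 of the 9 (all genes: 9.79%), and PWK/PhJ (all genes: 23.5%) and C57BL/6J (all genes: 13.7%) were each higher for 6.

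Of 11 other genes of recovery and calcium handling, all passed and 5 had a ratio of at least 1.5, with a median of 1.46. Phosducin (Pdc), which binds the beta and gamma subunits of transducin, ran from 272 ± 7.88 cpm in A/J to 781 ± 47.0 cpm in NZO/HlLtJ, and cone arrestin (Arr3) from 23.4 ± 0.598 cpm in NZO/HlLtJ to 62.5 ± 2.36 cpm in PWK/PhJ. Pde6d had the smallest ratio (1.16). Rod arrestin (Sag), named after its values were seen, was lowest in C57BL/6J (917 ± 81.1 cpm) and highest in NOD/ShiLtJ (2210.2 ± 72.0 cpm), where Grk1 was below the mean of the other strains.

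Of 19 relatives of the members in the kinase, calcium sensor, cyclase and exchanger families, 15 were tested and all 15 passed, 9 of them with a ratio of at least 1.5, with a median of 1.54. Npr1, Gucy2c, Gucy2d and Gucy2g were below the limit of 0.5 cpm. The exchanger gene Slc24a5 had the widest span at very low levels, from 0.252 ± 0.0766 cpm in NZO/HlLtJ to 0.865 ± 0.266 cpm in WSB/EiJ. Hpcal4, a relative of recoverin in neurons, ran from 14.01 ± 1.06 cpm in PWK/PhJ to 29.0 ± 1.00 cpm in CAST/EiJ, and Ncald, another, had the smallest ratio (1.22). Of 6 genes for RGS proteins of the R7 family other than Rgs9 and their partners, all passed and 1 had a ratio of at least 1.5, with a median of 1.31. That gene was Gpr179, an orphan receptor of ON bipolar cells, with 43.5 ± 4.99 cpm in CAST/EiJ and 94.9 ± 5.54 cpm in WSB/EiJ, next to which Rgs11 had a ratio of 1.38 and Rgs7bp the smallest (1.23).

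Promoter sequences of 7 members were at hand in a RefSeq table (GRCm38.p6), and those of Rcvrn, Guca1b and Rgs9bp were not matched. The letters TAATCC, to which the photoreceptor factor CRX is known to bind, were sought on both strands (GGATTA on the other). They occurred in 4 of the 7 promoters, Guca1a, Gucy2e, Gucy2f and Gnb5, and in 7.06% of 32851 promoters of the same length (300 bases). Grk1, Rgs9 and Slc24a1 did not hold these letters in this window. In Grk1, Guca1a and Gucy2f all CAST/EiJ libraries were above all others, and the share of all genes with such a separation was not counted. The promoters of these 3 members are shown. They are chr8:13404831-13405130 (plus strand), chr17:47400557-47400856 (minus strand) and chrX:142196887-142197186 (minus strand), 5' to 3' along the gene, with matches in capitals, of which Gucy2f has 2.
Grk1: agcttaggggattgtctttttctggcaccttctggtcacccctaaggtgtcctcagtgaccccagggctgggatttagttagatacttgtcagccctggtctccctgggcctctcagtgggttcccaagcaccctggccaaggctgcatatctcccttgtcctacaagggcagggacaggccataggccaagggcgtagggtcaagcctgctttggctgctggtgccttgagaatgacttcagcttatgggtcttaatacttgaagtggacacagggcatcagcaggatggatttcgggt
Guca1a: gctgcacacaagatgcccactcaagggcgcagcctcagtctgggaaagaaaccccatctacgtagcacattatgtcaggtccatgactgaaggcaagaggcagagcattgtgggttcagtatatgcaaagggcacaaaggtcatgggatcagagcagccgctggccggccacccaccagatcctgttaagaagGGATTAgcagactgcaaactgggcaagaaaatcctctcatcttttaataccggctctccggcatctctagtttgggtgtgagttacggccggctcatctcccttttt
Gucy2f: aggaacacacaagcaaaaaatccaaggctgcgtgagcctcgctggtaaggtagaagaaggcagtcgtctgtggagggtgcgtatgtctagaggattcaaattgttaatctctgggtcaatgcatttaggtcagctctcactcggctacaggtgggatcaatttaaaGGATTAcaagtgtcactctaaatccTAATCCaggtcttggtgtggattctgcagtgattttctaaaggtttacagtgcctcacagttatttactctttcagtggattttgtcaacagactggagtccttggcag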

How the data were processed

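Retinal RNA of 24 libraries was measured by the authors with a stranded kit for total RNA. Alignment by the authors used STAR and the mouse genome GRCm38/mm10. Partek's expectation-maximization model then assigned the reads, which gives fractional counts. The deposited values are cpm, which the authors made by dividing by the total reads of a library and adding 0.0001. Only 87.6% to 89.7% of low values (under 20 reads) lay within 0.02 reads of a whole number, so no count test was used. GRCm38 is the genome of C57BL/6J, and whether sequence differences of the other strains changed read assignment was not tested. Whether counting used strand is not given in the sources used here.

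Strains came from the labels. Genes whose mean reached 0.5 cpm were fitted as log2(cpm + 1) with limma 3.58.1 in R 4.3.3 (lmFit, eBayes with trend), and Storey's q (lambda 0.5) was limited to 0.01. The estimated share of genes without a difference was 0.0498 for the F-test, 0.442 for pairs and 0.409 for strain contrasts. Exon lengths came from GENCODE for GRCm38, whereas the authors counted reads with RefSeq. Python 3.11.15 was used for tables and figures.

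The members and lists were chosen with earlier results of these data known. Named genes were the members, of each related list the 2 with the largest and the 1 with the smallest ratio of strain means, the gene most alike to each member, and the most abundant marker of the lists of other cell types. Alternatives were a pseudocount of 0.1, no filter, a filter at 5 cpm, and median-ratio, quantile and rod marker scaling, Benjamini-Hochberg adjustment, a q of 0.05, ordinary analysis of variance and leaving out each library. Leaving out 4 libraries high in Xist was chosen after seeing the data.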

Additional observations from a re-analysis of the deposited data

How the results depend on the processing

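Leaving out each of the 24 libraries in turn gave 14619 to 15346 genes that differ between strains and 10 members in each case, 7543 to 7722 genes with a ratio of at least 1.5, 126946 to 137318 combinations of a gene and a pair (94 to 129 among members) and 39035 to 42144 calls of a strain against the others (29 to 42 among members). Members with a ratio of at least 1.5 numbered 3 to 6. They were 3 without WSB/EiJ replicate 1 (Gnb5 1.47, Rgs9 1.48) and 3 without WSB/EiJ replicate 3 (Gnb5 1.49, Rgs9 1.47), and 2 with rod marker scaling (Guca1a and Guca1b), so that Gnb5 and Rgs9 lay at the limit. Rgs9 was also under it without 129S1/Svlmj replicate 2 (1.49). The count of 6 came from Rgs9bp, which passed the limit without A/J replicate 1 (1.62) and without CAST/EiJ replicate 3 (1.51).

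Without a filter 12833 genes differed by at least 1.5 times in place of 7588. With a mean of at least 5 cpm, where fewer genes were tested, 8749 genes differed, 2786 of them by at least 1.5 times, with 80639 pairs in place of 136782 and 24201 strain calls in place of 41783. A q of 0.05 passed all 16400 genes in the F-test, since the estimated share without a difference was below it. With rod marker scaling Gucy2f in A/J turned from -0.12 to 0.0464 (q = 0.173).

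Of the 34 strain calls of members, 32 stood under median-ratio scaling, 28 under quantile normalization, 28 with Benjamini-Hochberg adjustment, 24 without the 4 libraries high in Xist and 34 without WSB/EiJ replicate 2. Calls of Slc24a1 in A/J and PWK/PhJ were lost under several settings.

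Scaling moved the share of higher calls over all genes. With rod marker scaling it was 89.2% in place of 52.9% in 129S1/Svlmj, 89.8% in place of 54.4% in A/J, 24.2% in place of 55.1% in C57BL/6J, 16.1% in place of 41.0% in CAST/EiJ and 22.6% in place of 49.0% in NZO/HlLtJ. The median gene then stood at 0.13, 0.15 and -0.16 in log2 in 129S1/Svlmj, A/J and CAST/EiJ. With median-ratio scaling the share was 51.4% in place of 61.9% in NOD/ShiLtJ and 49.4% in place of 36.5% in WSB/EiJ, and with quantile normalization 47.5% and 49.3%. No paired analysis was possible because the labels give no replicate numbers, and those used here follow the order of the samples. The authors state that libraries were pooled for sequencing in randomized complete blocks. The labels do not name these blocks, so the tests leave them out.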
